A study of Mus musculus with 12 samples.

Results

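The collagens, laminins and other matrix genes were followed in sorted O1+ oligodendrocytes of 3 mouse genotypes, WT, Cnp-Cre Jab1fl/fl and the latter without p21. A gene was included when its symbol was that of a collagen chain (Col, a number, a and a number) or of a laminin alpha, beta or gamma chain (Lama, Lamb or Lamc and a number), or when it was Fn1, Mgp, Sparc, Dcn, Lum or Bgn. This rule used names and no measured value, and it found 61 of the 55376 symbols of the table: 44 collagen chains, 11 laminin chains and the 6 other genes.

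RNA-Seq was performed on live CD45- O1+ cells sorted by FACS from the brains of mice at P40, all labelled C57BL/6, with 4 samples per genotype and 2 brains pooled in each sample. The first group was WT. In Cnp-Cre Jab1fl/fl mice, a Cre recombinase expressed from Cnp, a gene of the oligodendrocyte lineage that is also active in Schwann cells, deletes the floxed Jab1 gene (symbol Cops5). The WT labels name no Cre, so effects of the Cre allele and of Jab1 loss cannot be told apart. Cnp-Cre Jab1fl/fl p21-/- mice, called double mutants here, carry the same Cre and floxed allele and in addition lack p21 (Cdkn1a) from all cells of the body, not only from oligodendrocytes. The study lists 129S6/SvEvTac as the strain of the backcrossed p21-null line. A p21-/- group without Jab1 deletion was not analysed here, so the effect of p21 loss alone cannot be told apart from its effect in Jab1 mutants. Values are given below in the order of the replicate numbers, which were 1, 3, 5 and 6 in WT, 1, 2, 3 and 5 in double mutants and 1, 2, 3 and 4 in the remaining group. CPM is the count of a gene scaled to the total count of its sample with TMM factors. A gene was tested when it reached 1 CPM, computed without these factors, in at least 4 of the 12 samples. Of the 61 matrix genes, 49 passed this filter, among 17716 genes in all.

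The extracellular matrix of the brain is sparse in collagen fibers. Its collagens and laminins lie mostly in basement membranes, the thin sheets around blood vessels, under the choroid plexus epithelium and at the brain surface, where laminin trimers and a collagen IV network are linked by other glycoproteins. Endothelial cells, pericytes, astrocyte endfeet and perivascular and meningeal fibroblasts are their main known sources in the brain. Fibrillar collagens give tensile strength to connective tissue, collagen VI forms beaded filaments close to cells, and small leucine-rich proteoglycans such as decorin bind collagen fibers.

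Total counts were between 61485556 and 153495112 per sample. Cops5 was detected in all samples, at 46.3 to 133 CPM in WT, 44.2 to 90.4 CPM in double mutants and 45.0 to 89.0 CPM in the other mutants, and these ranges overlapped. Cdkn1a was at 16.0 to 85.3 CPM in WT, at 64.7 to 103 CPM in double mutants and at 379 to 637 CPM in Cnp-Cre Jab1fl/fl. Counts per gene do not separate deleted from retained exons, so neither gene checks the deletion directly. The 2 pooled brains of a sample share a library, and p-values measure the spread between the 4 samples of a genotype.

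Neighboring collagen genes differed in how their promoters lie. Col4a1 and Col4a2, the alpha1 and alpha2 chains of the ubiquitous collagen IV trimer, are transcribed away from each other from starts 21 bp apart, and their exons overlap by 22 bp. Col6a1 and Col6a2, whose chains join in collagen VI, lie on the same strand of chromosome 10 with starts 102414 bp apart. Their promoter windows, from 250 bases before to 50 after the start (RefSeq, GRCm38.p6), are shown because the levels of the first pair stayed within a narrower ratio over the samples than those of the second. The lowest levels of Col6a1 rested on few counts, which widens the ratio of the second pair. The ratio per length of Col4a3 to Col4a4, with starts 72 bp apart, was 0.0407 to 44.5. That of Col4a6 to Col4a5, 1309 bp apart, was 0 to 2.58. Dcn to Lum, 85519 bp apart, was at 2.56 to 51.3 in 11 samples. Col1a1 to Col1a2, on different chromosomes, was at 0.125 to 0.953. Whether the distance between starts plays a part in these ratios was not tested. Capitals mark matches on either strand to the letters CCAAT, present in 37.4% of the 32851 mouse windows of this length, and to GGGCGG, called the GC box, present in 35.7%. Matches to both could overlap. The letters TATAAA, found in 13.6% of windows, matched in none of the windows printed. A match is a description of the letters and not evidence of a bound site. For Col6a2, which has 2 windows in RefSeq with starts 226 bp apart, the one nearer to Col6a1 is shown. The windows are Col4a1 at chr8:11312777-11313076 on the minus strand, Col4a2 at chr8:11312555-11312854 on the plus strand, and Col6a1 at chr10:76725995-76726294 and Col6a2 at chr10:76623581-76623880, both on the minus strand.
Col4a1: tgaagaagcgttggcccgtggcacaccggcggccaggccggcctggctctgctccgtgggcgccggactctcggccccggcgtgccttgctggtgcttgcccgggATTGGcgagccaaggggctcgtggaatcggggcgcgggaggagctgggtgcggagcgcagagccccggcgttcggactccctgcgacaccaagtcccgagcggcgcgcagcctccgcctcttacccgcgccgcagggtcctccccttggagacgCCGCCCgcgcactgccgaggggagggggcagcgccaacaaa
Col4a2: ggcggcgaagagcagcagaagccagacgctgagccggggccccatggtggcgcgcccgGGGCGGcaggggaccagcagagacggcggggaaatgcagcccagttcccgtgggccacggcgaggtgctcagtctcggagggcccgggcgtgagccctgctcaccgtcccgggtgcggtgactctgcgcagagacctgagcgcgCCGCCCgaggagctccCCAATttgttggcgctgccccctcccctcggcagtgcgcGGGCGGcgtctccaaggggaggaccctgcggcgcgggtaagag
Col6a1: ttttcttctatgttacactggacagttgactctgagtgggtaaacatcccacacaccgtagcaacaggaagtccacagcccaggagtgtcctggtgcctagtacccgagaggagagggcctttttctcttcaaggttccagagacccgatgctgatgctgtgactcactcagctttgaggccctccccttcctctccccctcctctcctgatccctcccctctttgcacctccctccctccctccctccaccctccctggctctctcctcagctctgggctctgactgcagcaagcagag
Col6a2: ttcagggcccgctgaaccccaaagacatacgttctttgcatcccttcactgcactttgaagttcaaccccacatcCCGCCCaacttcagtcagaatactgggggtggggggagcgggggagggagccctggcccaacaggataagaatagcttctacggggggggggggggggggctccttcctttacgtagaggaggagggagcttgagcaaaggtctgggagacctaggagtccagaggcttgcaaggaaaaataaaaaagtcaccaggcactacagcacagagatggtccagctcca
The Col4a1 and Col4a2 windows share 78 bases, and the GC box 9 bases after the first base of Col4a1 is the same site as that 7 bases after the first base of Col4a2. GC content was 74.0% in the Col4a1 window and 73.7% in that of Col4a2, above the median of 52.7% over all windows, against 57.3% for Col6a1 and 56.7% for Col6a2. Col6a1 held no match to the 3 motifs, and Col6a2 held 1 GC box. The other Col6a2 window, not printed, held 3 GC boxes at a GC content of 64.3%.

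In WT cells, matrix transcripts were dominated by Sparc, a secreted collagen-binding glycoprotein. Sparc was at 1743, 1078, 835 and 1272 CPM in the 4 WT samples and made up 41.4% to 71.5% of the summed CPM of all 61 genes in them. Per kb of exon, its WT level was 453 ± 141 CPM (mean ± SD, n = 4 here and for the other means). Next per kb came Col9a3, a chain of the fibril-associated collagen IX, at 42.7 ± 16.5 CPM, Mgp, a small secreted inhibitor of calcification, at 20.8 ± 7.61 CPM, Lamb2, the laminin beta2 chain, at 12.5 ± 15.3 CPM, and Col16a1 at 12.2 ± 7.93 CPM. The last 2 differed by far less than their spread. Below the filter were 12 genes, among them Col6a4, Col6a5, Col6a6, Col10a1, Col19a1, Col22a1, Col24a1, Col25a1, Col26a1, Col28a1 and Lamb3. Of these, Col10a1 had a count of 0 in all 12 samples, which allows up to 3 counts in each, while the highest single value was that of Col24a1, at 3.49 CPM in Cnp-Cre Jab1fl/fl replicate 1.

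**Figure D1:**
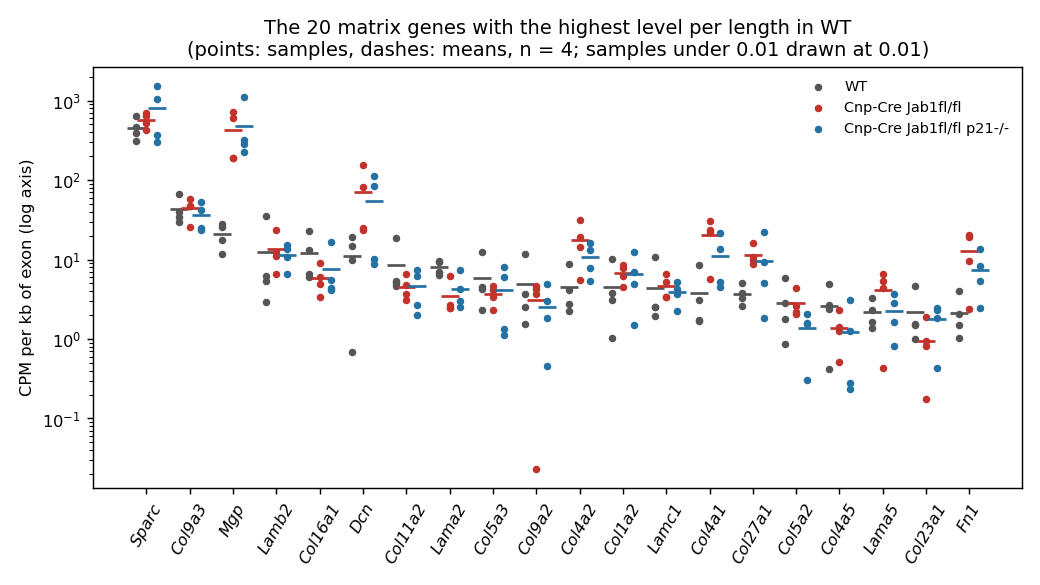
CPM per kb of exon on a log axis for the 20 matrix genes with the highest WT mean, with a point for each sample and a dash for each genotype mean. Sparc lies far above the rest in WT, and the mean of Mgp is 20.8 CPM per kb in WT, against 484 in double mutants and 426 in Cnp-Cre Jab1fl/fl.

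The comparison of Cnp-Cre Jab1fl/fl with WT asked which matrix genes change when oligodendrocytes lose Jab1. Of the 49 matrix genes tested, 8 were significantly higher (edgeR quasi-likelihood test, adjusted p below 0.05), which is 16.3%, and 0 were lower. Over all 17716 genes tested, 5.19% were higher and 2.46% lower. The 8 genes were Col6a2, Mgp, Lamc3, Col27a1, Bgn, Lama4, Fn1 and Col4a1. At an unadjusted p below 0.05, 17 matrix genes were higher and 2 lower, against 13.2% and 9.3% of all genes. The fitted log2 change was above 0 in 36 of the 49 genes, with a median of 0.78, whereas it was above 0 in 51% of all genes, with a median of 0.02. DESeq2 called 16 matrix genes higher and 1 lower, against 9.52% and 5.66% of all genes.

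The largest called change was that of Col6a2, which encodes the alpha2 chain of collagen VI (chr10:76595762-76623630). Col6a2 was at 2.10, 3.88, 2.66 and 3.002 CPM in WT and at 27.4, 128, 32.4 and 91.4 CPM in Cnp-Cre Jab1fl/fl. All mutant samples were above all WT samples, with means of 69.8 ± 48.5 and 2.91 ± 0.746 CPM. The log2 fold change was 4.58 ± 0.56 (SE), with an edgeR adjusted p of 0.00171.

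The other collagen VI chains did not show this pattern. Col6a1, the alpha1 chain, was at 0.163, 2.52, 0.0396 and 3.30 CPM in WT and at 3.58, 3.36, 0.0883 and 3.74 CPM in Cnp-Cre Jab1fl/fl, with overlapping ranges and an edgeR adjusted p of 0.779. Col6a3, the alpha3 chain, ranged from 0.299 to 7.67 CPM in WT and from 3.97 to 11.7 CPM in the mutants (edgeR adjusted p = 0.701). Col6a4, Col6a5 and Col6a6 were below the filter. Per length, the level of Col6a1 was 0.0218 to 1.61 times that of Col6a2 in WT and 0.00400 to 0.191 times in Cnp-Cre Jab1fl/fl. The low end of each range rested on few counts of Col6a1, 4 in WT replicate 5 and 6 in Cnp-Cre Jab1fl/fl replicate 3.

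Mgp (chr6:136872435-136875823) rose similarly. It was at 15.9, 10.8, 17.5 and 7.28 CPM in WT and at 115, 370.4, 119 and 448 CPM in Cnp-Cre Jab1fl/fl. The groups did not overlap, and the log2 fold change was 4.35 ± 0.55 (edgeR adjusted p = 0.00197).

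**Figure D2:**
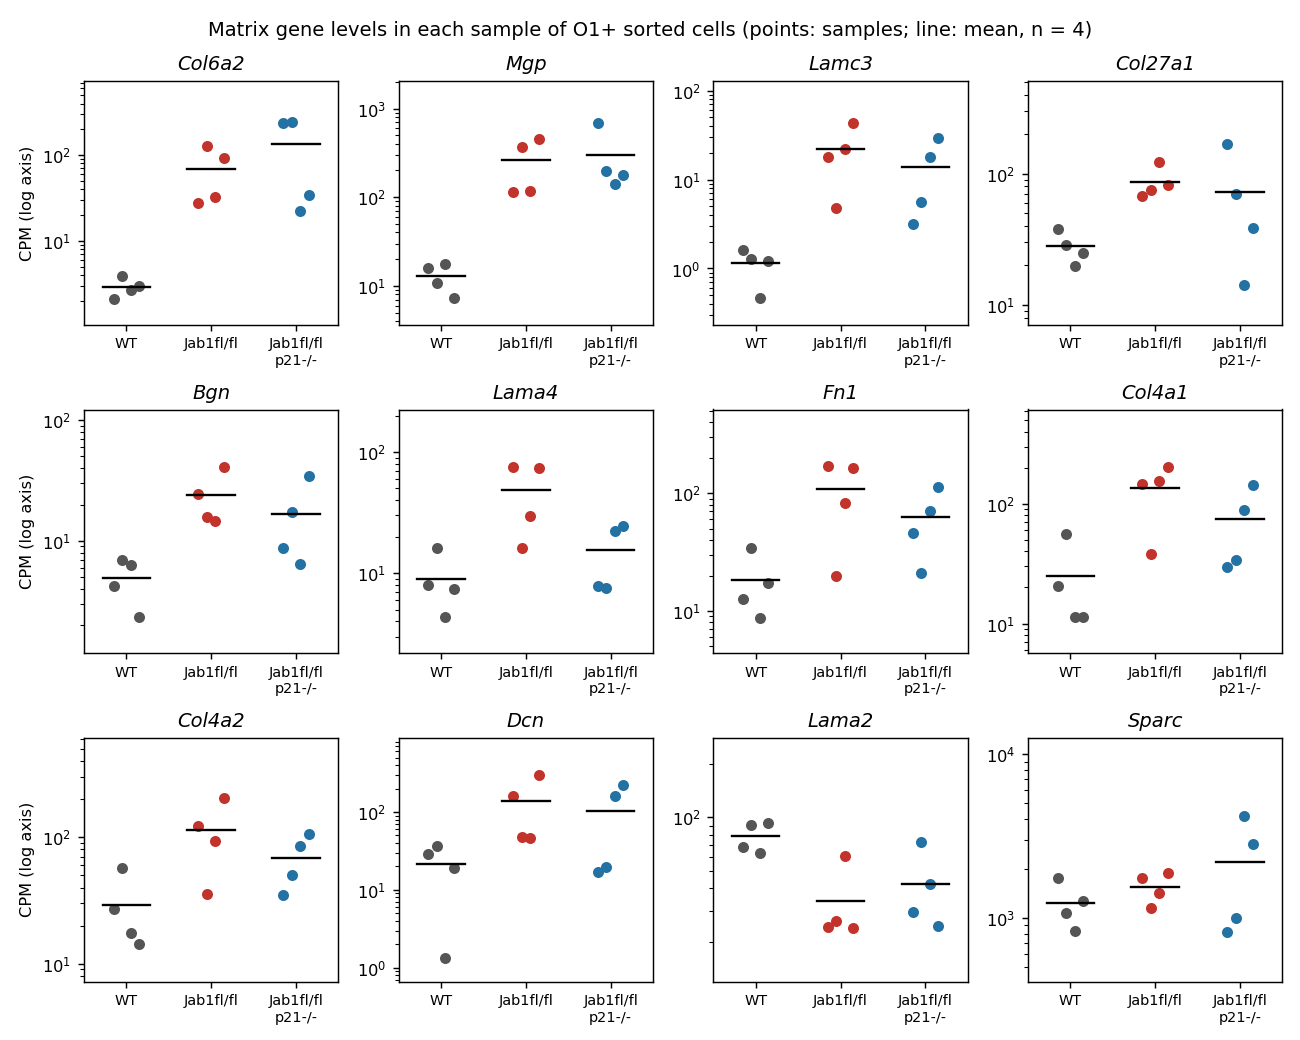
CPM on a log axis for 12 matrix genes, with a point for each sample and a line at each genotype mean. The 8 mutant points of Mgp, Col6a2 and Lamc3 all lie above the 4 WT points, whereas those of Fn1, Col4a1 and Col4a2 overlap with WT, and Sparc and Lama2 are shown as genes without a called change.

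Among the collagen IV chains, 1 of 6 was called, and it was higher, against 5.19% of all genes. Col4a1 (chr8:11198423-11312826) was at 20.6, 56.1, 11.4 and 11.3 CPM in WT and at 146, 37.7, 156 and 204 CPM in Cnp-Cre Jab1fl/fl. Replicate 2 of the mutants was within the WT range and the other mutant samples were above it. The log2 fold change of Col4a1 was 2.45 ± 0.62 (edgeR adjusted p = 0.0360). Its partner Col4a2 had 26.8, 57.3, 17.5 and 14.4 CPM in WT and 123, 35.6, 92.8 and 203 CPM in the mutants, and narrowly missed the threshold, with a log2 fold change of 1.97 ± 0.56 and an edgeR adjusted p of 0.0553. The ratio of Col4a1 to Col4a2 per length stayed between 0.631 and 1.63 over the 12 samples, while Col4a1 itself ranged from 11.3 to 204 CPM.

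The alpha3 and alpha4 chains, which with alpha5 form the collagen IV of the kidney glomerulus, were lower in level. Col4a4 was at 0.163, 0.633, 1.43 and 2.42 CPM in WT and at 20.3, 3.62, 8.98 and 9.66 CPM in Cnp-Cre Jab1fl/fl. These values did not overlap, but the log2 difference of 3.19 ± 0.90 missed the threshold (edgeR adjusted p = 0.0539). Col4a3 was at 0.0494 to 1.53 CPM in WT and at 1.38 to 12.7 CPM in the mutants (edgeR adjusted p = 0.149), although its start is 72 bp from that of Col4a4, and the ratio of the pair per length ranged from 0.0407 to 44.5. Col4a6 was at 0.326 to 1.43 CPM and at 0.828 to 8.73 CPM in the same order (edgeR adjusted p = 0.221). Col4a5 was at 2.71 to 31.8 CPM in WT and at 3.33 to 15.3 CPM in Cnp-Cre Jab1fl/fl (edgeR adjusted p = 0.487).

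**Figure D3:**
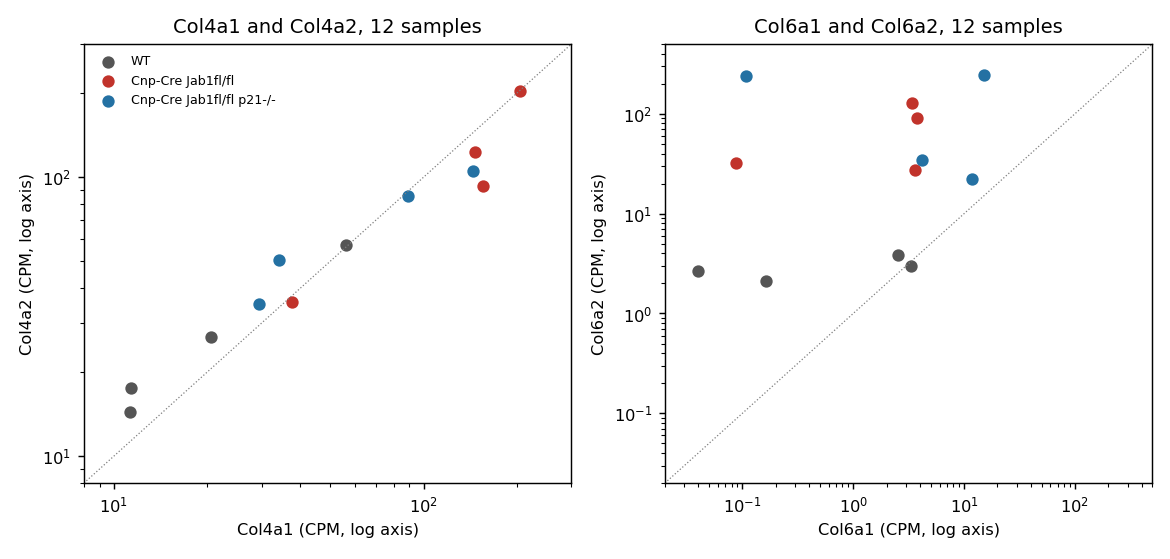
CPM of Col4a2 against Col4a1 and of Col6a2 against Col6a1 in the 12 samples, on log axes, with a dotted line where both genes have the same CPM. The Col4a1 and Col4a2 points follow the line, and all 8 mutant points of the collagen VI pair lie above it, with Col6a2 at 22.2 to 244 CPM and Col6a1 at 0.0883 to 15.2 CPM.

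Of 10 fibrillar collagens tested, 1 was called higher, against 5.19% of all genes. A single call among so few genes does not set this family apart from that share. Col27a1, a fibrillar chain known from cartilage (chr4:63214004-63334991), was at 38.1, 28.6, 19.8 and 24.8 CPM in WT and at 67.7, 75.1, 123 and 82.2 CPM in Cnp-Cre Jab1fl/fl. The groups did not overlap, and the log2 fold change of 1.64 ± 0.32 was the smallest of the 8 called (edgeR adjusted p = 0.0117). The chains of the abundant collagens of connective tissue were not called. Col3a1 was at 2.79, 10.4, 2.05 and 1.22 CPM in WT and at 56.1, 8.82, 10.3 and 21.2 CPM in the mutants, with overlap in 2 mutant samples (log2 difference 2.55 ± 0.81, edgeR adjusted p = 0.0809). Col1a1 was at 3.89 to 33.1 CPM in WT and at 3.34 to 10.6 CPM in the mutants (edgeR adjusted p = 0.559), and its partner in collagen I, Col1a2, at 5.50 to 53.9 CPM and at 24.0 to 45.9 CPM (edgeR adjusted p = 0.588). Below WT in mean were Col11a2, at 28.9 to 118 CPM in WT and 19.8 to 41.5 CPM in mutants (log2 difference -0.90 ± 0.48, edgeR adjusted p = 0.307), and the fibril-associated Col16a1, at 31.7 to 120.1 CPM and 17.5 to 47.1 CPM (log2 difference -1.07 ± 0.47, edgeR adjusted p = 0.202).

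None of the remaining 15 collagens tested was called, against 5.19% of all genes called higher and 2.46% lower. Col15a1, of the collagens that carry sugar chains in vessel basement membranes, was at 0.181, 0.950, 0 and 0 CPM in WT and at 11.5, 2.21, 6.45 and 7.98 CPM in Cnp-Cre Jab1fl/fl, without overlap, but with an edgeR adjusted p of 0.117. Col7a1, the collagen of anchoring fibrils, was at 9.65 to 18.3 CPM in WT and at 19.3 to 32.0 CPM in the mutants (edgeR adjusted p = 0.224). Col8a1, a collagen of endothelial matrix, was at 0.762 to 10.1 CPM and at 4.04 to 36.1 CPM (edgeR adjusted p = 0.169). Of the fibril-associated collagens, 0 of 7 were called, with a median log2 change of -0.12, and Col9a3, the most abundant of them, was at 90.8 to 203 CPM in WT and 78.3 to 174 CPM in the mutants.

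Laminins are trimers of an alpha, a beta and a gamma chain. Of the 9 chains tested, 2 were called higher, against 5.19% of all genes. Lamc3, the gamma3 chain (chr2:31887291-31946539), was at 1.61, 1.28, 0.465 and 1.21 CPM in WT, the lowest from 47 counts, and at 17.8, 4.81, 22.3 and 42.8 CPM in Cnp-Cre Jab1fl/fl. All mutant samples were above WT, and the log2 fold change was 4.26 ± 0.73 (edgeR adjusted p = 0.00696). An exon of Lamc3 is overlapped by Gm13441 on the other strand over 329 bp, and the kit does not mark strand, so reads of both genes cannot be told apart there. Lama4, the alpha4 chain of vessel basement membranes (chr10:38965515-39110188), was at 7.99, 16.0, 4.37 and 7.35 CPM in WT and at 74.8, 16.1, 29.7 and 73.9 CPM in the mutants. The groups were separate only by the small distance between mutant replicate 2 and WT replicate 3, and the log2 fold change was 2.44 ± 0.56 (edgeR adjusted p = 0.0253).

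Lama2, the alpha2 chain, whose loss causes a muscular dystrophy with white matter changes, had the opposite sign. It was at 67.9, 90.9, 63.1 and 93.0 CPM in WT and at 24.4, 26.4, 60.5 and 23.9 CPM in Cnp-Cre Jab1fl/fl. The groups did not overlap, the only case in this direction among the 49 genes (7.24% of all genes), against 11 in the other (9.9% of all genes). The log2 difference of -1.22 ± 0.36 missed the threshold (edgeR adjusted p = 0.0649) and passed it without mutant replicate 3, whose value was the nearest to WT. Exons of Lama2 are overlapped by Gm48084 on the other strand over 154 bp, with the same limit as for Lamc3. The gamma1 chain Lamc1, at 14.9 to 82.2 CPM in WT and 26.04 to 50.8 CPM in mutants, Lamb2, at 16.5 to 198 CPM and 36.8 to 134 CPM, and Lama5, at 15.7 to 37.7 CPM and 4.94 to 75.5 CPM, overlapped widely, with edgeR adjusted p of 0.955, 0.947 and 0.415. Lamb1, the beta1 chain, was at 0.0297 to 3.70 CPM in WT and at 3.42 to 13.7 CPM in mutants (edgeR adjusted p = 0.314). Lama1 and Lama3 had edgeR adjusted p of 0.657 and 0.987, and Lamb3 was below the filter.

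Fn1, fibronectin, a glycoprotein of plasma and of tissue matrix (chr1:71585520-71653200), was at 12.7, 34.1, 8.75 and 17.3 CPM in WT and at 171, 19.9, 82.1 and 164 CPM in Cnp-Cre Jab1fl/fl. Mutant replicate 2 was within the WT range. The log2 fold change was 2.59 ± 0.63 (edgeR adjusted p = 0.0314). Exons of Fn1 are overlapped by Apol7d on the other strand over 227 bp, with the same limit as for Lamc3. Sparc, the most abundant of the genes, was at 1762, 1157, 1428 and 1876 CPM in the mutants, which overlapped with WT (log2 difference 0.34 ± 0.33, edgeR adjusted p = 0.609).

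The small leucine-rich proteoglycans were all higher in mean, and 1 of 3 was called, against 5.19% of all genes called higher. Bgn, biglycan (chrX:73483602-73495933), was at 4.22, 6.97, 6.30 and 2.35 CPM in WT and at 24.3, 15.8, 14.6 and 40.8 CPM in Cnp-Cre Jab1fl/fl, without overlap. Its log2 fold change was 2.27 ± 0.52 (edgeR adjusted p = 0.0242). Dcn, decorin, was at 28.9, 36.9, 1.33 and 19.0 CPM in WT and at 160.4, 47.7, 46.1 and 297 CPM in mutants (edgeR adjusted p = 0.0860). Lum, lumican, was at 1.67, 2.76, 0.653 and 0 CPM in WT and at 33.2, 6.97, 7.54 and 22.3 CPM in mutants (edgeR adjusted p = 0.0875). Neither overlapped with WT.

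The 8 calls differed in how much they rested on single samples. Col6a2, Mgp, Lamc3 and Col27a1 remained significant when each of the 8 samples was left out in turn, with a highest edgeR adjusted p of 0.00818, 0.0121, 0.0269 and 0.0393. Bgn and Lama4 lost significance without WT replicate 1, 5 or 6 or without mutant replicate 1 or 4, with a highest edgeR adjusted p of 0.0763 and 0.0713. Fn1 and Col4a1 lost it without any of these or mutant replicate 3, with a highest edgeR adjusted p of 0.0871 and 0.0957. With 7 samples, 4 to 11 matrix genes were called higher.

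**Figure D4:**
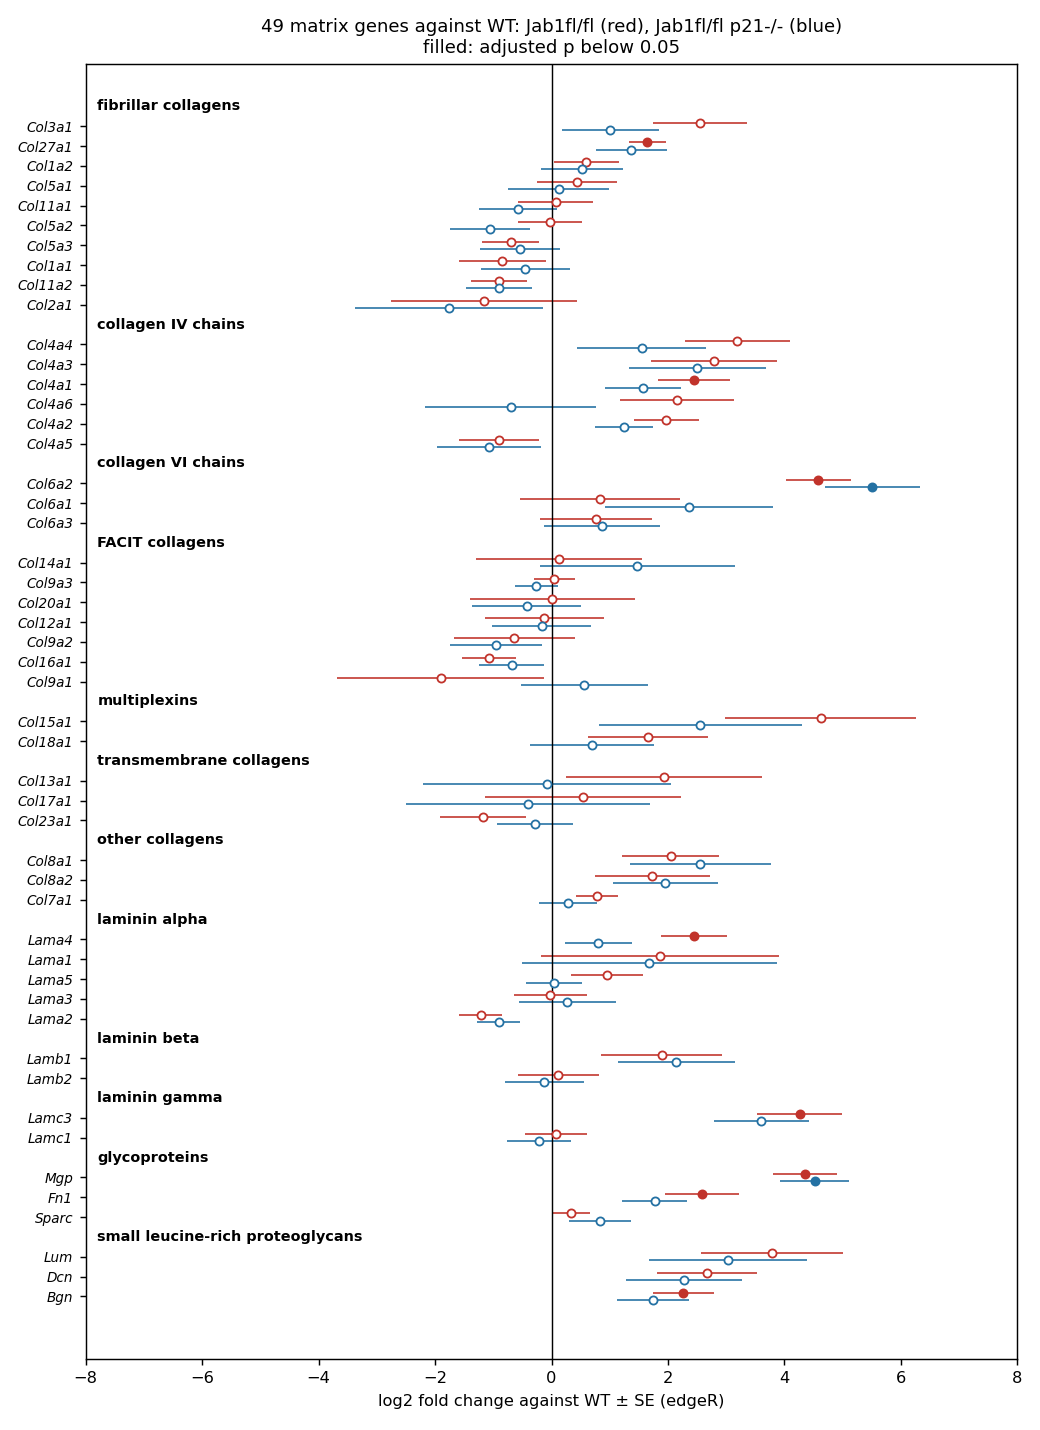
Fitted log2 fold change against WT with its standard error for the 49 matrix genes tested, by chain family, in Cnp-Cre Jab1fl/fl (red) and double mutants (blue), with filled points below an adjusted p of 0.05. Both sets are measured against the same 4 WT samples, and 8 red points and 2 blue points are filled, all to the right of 0.

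The double mutants were compared with the same WT samples to ask which matrix genes differ from WT when p21 is also missing. Of the 49 genes, 2 were called higher in edgeR (4.08%), against 0.175% of all genes, and 0 were lower, against 0.0169%. At an unadjusted p below 0.05, 10 were higher and 1 lower, against 7.82% and 4.57% of all genes. The log2 change was above 0 in 30 of the 49 genes, with a median of 0.57, against 50% of all genes and a median of 0. DESeq2 called 4 higher and 0 lower, against 3.74% and 1.12% of all genes.

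Mgp was at 680.2, 198, 139 and 178 CPM in double mutants, all above WT (log2 fold change 4.52 ± 0.59, edgeR adjusted p = 0.0365). Col6a2 was at 239, 244, 22.2 and 34.5 CPM, again all above WT (log2 fold change 5.51 ± 0.82, edgeR adjusted p = 0.0404). The double mutants thus formed 2 pairs for Col6a2, with replicates 1 and 2 above and replicates 3 and 5 within or below the Cnp-Cre Jab1fl/fl range. In replicate 1, Col6a1 was at 0.107 CPM, from only 10 counts, beside 239 CPM of Col6a2. Both calls were lost without any single WT sample or without double mutant replicate 2, with a highest edgeR adjusted p of 0.147 for Mgp and 0.151 for Col6a2, while the 4 values of each gene stayed above WT.

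The next genes were Lamc3, at 3.20, 5.52, 17.8 and 29.4 CPM, without overlap with WT (log2 difference 3.61 ± 0.81, edgeR adjusted p = 0.104), Fn1, at 45.6, 21.01, 70.6 and 114 CPM (1.78 ± 0.56, edgeR adjusted p = 0.225), and Bgn, at 8.81, 17.2, 6.47 and 34.6 CPM (1.75 ± 0.62, edgeR adjusted p = 0.283). Col4a1 was at 29.5, 34.04, 88.8 and 144 CPM and Col4a2 at 34.9, 50.3, 85.8 and 105 CPM, with replicates 1 and 2 of both genes inside the WT range (edgeR adjusted p = 0.349 and 0.335). Lama4 was at 7.88, 7.56, 22.3 and 24.7 CPM, where replicates 1 and 2 were again inside the WT range (edgeR adjusted p = 0.611). Col27a1 was at 169, 70.3, 14.1 and 38.3 CPM, and its replicate 3 was below WT (edgeR adjusted p = 0.392). On the lower side, Lama2 was at 29.5, 72.9, 42.1 and 24.5 CPM (log2 difference -0.91 ± 0.37, edgeR adjusted p = 0.339), followed by Col11a2 at 12.8 to 46.8 CPM (-0.90 ± 0.57, edgeR adjusted p = 0.557) and Col5a2 at 2.02 to 13.7 CPM (-1.06 ± 0.68, edgeR adjusted p = 0.565). Without overlap with WT were 6 genes above it (4.52% of all genes) and 0 below (3.58%). Sparc was at 817, 1005, 4177 and 2809.7 CPM (edgeR adjusted p = 0.559).

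The direct comparison of double mutants with Cnp-Cre Jab1fl/fl tests whether p21 loss changed these levels. No matrix gene was called in either direction in edgeR, as was the case for all 17716 genes (0%), and DESeq2 also called 0 matrix genes, against 0.113% of all genes higher and 0.378% lower. The values of both mutants overlapped for all 49 genes, whereas 1.22% of all genes lay without overlap above and 1.99% below. At an unadjusted p below 0.05, 0 matrix genes were higher and 2 were lower, against 1.75% and 3.25% of all genes. These were Lama4 (log2 difference -1.64 ± 0.59, edgeR adjusted p = 0.903) and Col15a1, a collagen of vessel basement membranes, at 11.5, 2.21, 6.45 and 7.98 CPM in Cnp-Cre Jab1fl/fl and 0.673, 0.681, 3.59 and 1.74 CPM in double mutants (-2.07 ± 0.89, edgeR adjusted p = 0.968). Col3a1 followed (-1.54 ± 0.75, edgeR adjusted p = 0.968). With the opposite sign, the smallest p were those of Col6a2 (0.95 ± 0.78, edgeR adjusted p = 0.996), Col9a1 (2.49 ± 2.07, edgeR adjusted p = 0.996) and Col6a1 (1.53 ± 1.29, edgeR adjusted p = 0.996). The log2 difference was above 0 in 17 of 49 genes (34.7%), with a median of -0.28, against 51.3% of all genes and a median of 0.02. Mgp differed by 0.18 ± 0.61 on this scale (edgeR adjusted p = 1). A p that misses the threshold does not show equal levels.

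Set against the highest of the 4 WT samples, the mutant samples differed from each other. WT replicate 3 set that highest value for several genes, among them Col4a1, Col4a2, Fn1, Lama4, Bgn, Dcn and Lum. Without Sparc, the matrix genes summed to 693, 1526, 468 and 591 CPM in WT. The sums were 1821, 1223, 1445 and 2297 CPM in Cnp-Cre Jab1fl/fl and 1660, 1491, 1252 and 1438 CPM in double mutants. The counts that follow thus depend in part on WT replicate 3. In Cnp-Cre Jab1fl/fl, 28 of the 49 genes were above all WT samples in replicate 1 (57.1%, against 30.4% of all genes), 22 in replicate 3 (44.9% against 33.1%) and 26 in replicate 4 (53.1% against 32.6%), but 15 in replicate 2 (30.6% against 28%). In double mutants, 20 were above WT in replicate 3 (40.8% against 29.5%) and 26 in replicate 5 (53.1% against 31.8%), whereas it was 13 in replicate 1 (26.5% against 25.1%) and 17 in replicate 2 (34.7% against 22.3%). Replicate 2 of Cnp-Cre Jab1fl/fl and replicate 1 of the double mutants were thus close to the background of all genes. Col6a2, Lamc3, Lum and Mgp were above every WT sample in all 8 mutant samples, as were 2.84% of all genes. These 4 names were found after their values were seen.

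Markers of vessel cells varied along with part of these genes. The gate took O1+ cells that lacked CD45 and, in the gating scheme of the study, CD11b, and no endothelial or mural marker is named in it. The summed level of 13 endothelial markers was 833, 737, 392 and 682 CPM in WT, 6146, 868, 3034 and 4754 CPM in Cnp-Cre Jab1fl/fl and 784, 884, 3513 and 5680.0 CPM in double mutants. The 3 mutant samples in which Col4a1, Col4a2 and Lama4 were closest to WT, replicate 2 of Cnp-Cre Jab1fl/fl and replicates 1 and 2 of the double mutants, were also those with endothelial sums near those of WT. These genes and samples were picked after their values were seen. In the same samples, Lamc3 was at 4.21, 2.80 and 4.83 times the WT mean. Bgn was at 3.19, 1.78 and 3.47 times and Fn1 at 1.09, 2.51 and 1.15 times. Of the 13 endothelial markers, 7 were called higher in Cnp-Cre Jab1fl/fl, against 5.19% of all genes, among them Cldn5, a tight junction protein of brain endothelium (log2 fold change 2.43 ± 0.54, edgeR adjusted p = 0.0210). In double mutants 0 were called, against 0.175% of all genes called higher. All 13 endothelial markers still had a log2 change above 0 there, with a median of 1.91. The part of these cells in the levels of the matrix genes was not tested. In bulk samples, more cells of a type and more RNA per cell cannot be told apart.

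Mgp and Col6a2 did not follow the endothelial sums in this way. In the same 3 samples Mgp was at 370.4, 680.2 and 198 CPM and Col6a2 at 128, 239 and 244 CPM, which for Mgp is 28.8, 52.9 and 15.4 times the WT mean and for Col6a2 44.0, 82.0 and 83.8 times, while the endothelial sum was 1.31, 1.19 and 1.34 times its WT mean. Col6a2 was lowest among mutants in double mutant replicate 3 and Cnp-Cre Jab1fl/fl replicate 1, whose endothelial sums were 5.31 and 9.30 times the WT mean. The sum of 12 mural markers, of pericytes and smooth muscle, was 294 to 544 CPM in WT, 1040.5 to 1819.5 CPM in Cnp-Cre Jab1fl/fl and 313 to 1758 CPM in double mutants. Of the 12, 5 were called higher in Cnp-Cre Jab1fl/fl against WT and 0 in double mutants, against 5.19% and 0.175% of all genes. The log2 change in double mutants was above 0 for 10 of them, with a median of 1.84. The mural sum was 313 CPM, or 0.857 times its WT mean, in double mutant replicate 1, which had the highest Mgp level. Every other mutant sample had a mural sum of 2.20 to 4.98 times that mean, with Mgp at 8.97 to 34.9 times its own. The samples singled out here were picked after their values were seen. The part of endothelial or mural cells in the levels of Mgp and Col6a2 was not tested.

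**Figure D5:**
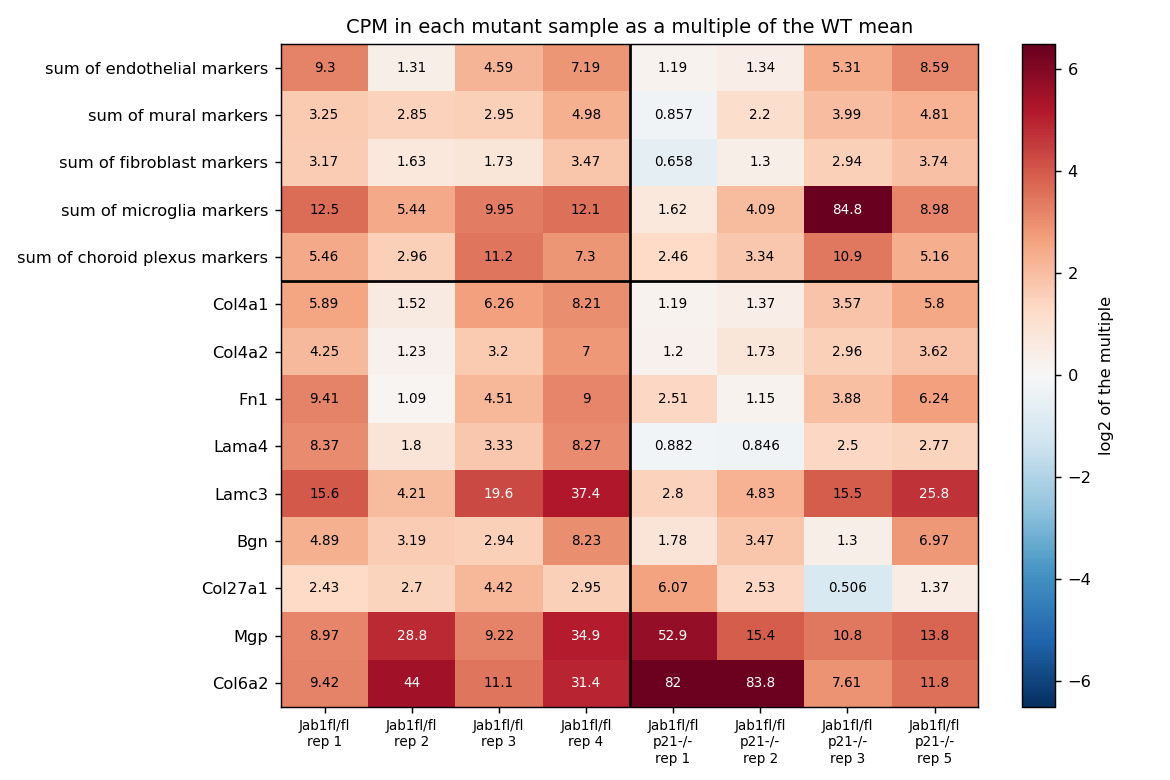
Level in each of the 8 mutant samples as a multiple of the WT mean, printed in each cell and colored on a log2 scale, for the summed markers of 5 cell types (upper block) and 9 matrix genes (lower block). Where the endothelial sum is between 1.19 and 1.34, Col4a1, Col4a2 and Lama4 are between 0.846 and 1.80. There Fn1 is between 1.09 and 2.51, Bgn between 1.78 and 3.47 and Lamc3 between 2.80 and 4.83. Mgp and Col6a2 are at 7.61 or more in every sample.

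Markers of other cells differed in direction. Of all genes, 5.19% were called higher and 2.46% lower in Cnp-Cre Jab1fl/fl against WT, and 0.175% and 0.0169% in double mutants. The 9 astrocyte markers summed to 5173 to 12558 CPM in WT, 3273 to 8081 CPM in Cnp-Cre Jab1fl/fl and 3712 to 10370.0 CPM in double mutants, with overlap, and 0 were called in edgeR, where 8 of 9 had a log2 change below 0 in the first comparison (median -0.49, smallest edgeR adjusted p 0.169). The 13 markers of perivascular and meningeal fibroblasts summed to 16.1 to 40.9 CPM in WT, 44.2 to 94.3 CPM in Cnp-Cre Jab1fl/fl and 17.9 to 102 CPM in double mutants. Dpt was listed at 0 in all samples, 6 of the 13 passed the filter, and 0 were called in either comparison with WT. In double mutant replicate 1, this sum was 0.658 times the WT mean beside 52.9 times for Mgp. The 9 choroid plexus markers summed to 303 to 4187 CPM in WT, 6601 to 24933 CPM in Cnp-Cre Jab1fl/fl and 5483 to 24372 CPM in double mutants, without overlap, and Ttr, Kcnj13 and Calml4 were called higher in Cnp-Cre Jab1fl/fl. The 12 microglia markers were all called higher in Cnp-Cre Jab1fl/fl, from 89.3 to 237 CPM in WT to 903 to 2073 CPM in sum, and double mutant replicate 3 stood apart at 14063 CPM. Ptprc, which encodes the CD45 that the sort excludes, was at 0 to 1.53 CPM in WT and at 31.7 to 107 CPM in Cnp-Cre Jab1fl/fl, and was called higher (edgeR adjusted p = 0.00889). In double mutants it was at 3.11 to 101 CPM and was not called (edgeR adjusted p = 0.194). When the study reanalysed sorted cells by cytometry, it found no clear presence of CD45+ cells in any group. It did not fully exclude that a few other cells were included. Of 9 mature oligodendrocyte markers, 6 were called lower in Cnp-Cre Jab1fl/fl and 0 in double mutants, where 8 had a log2 change below 0, with a median of -1.19. Cnp, from which the Cre of both mutant groups is expressed, was at 4833 to 13293 CPM in WT. It was at 227 to 1659.8 CPM in Cnp-Cre Jab1fl/fl and 845 to 2571 CPM in double mutants. Whether the Cre allele itself lowers Cnp was not tested. The part of any of these cells in the matrix genes was not tested.

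Genes that build and bind the matrix were counted in 3 lists, beside the 5.19% of all genes called higher and 2.46% called lower in this comparison. Of 27 genes for collagen synthesis and processing, 23 were tested in Cnp-Cre Jab1fl/fl against WT, with 1 called higher, 1 lower and a median log2 change of -0.04. Pcolce, an enhancer of procollagen cleavage, was at 2.78 to 16.9 CPM in WT and at 34.6 to 74.0 CPM in the mutants (log2 fold change 2.30 ± 0.54, edgeR adjusted p = 0.0263). Plod1, a lysyl hydroxylase of collagen, fell from 197 to 392 CPM to 82.9 to 161 CPM (-1.43 ± 0.34, edgeR adjusted p = 0.0290). Of 12 basement membrane partners tested, 1 was higher, Hspg2, the proteoglycan perlecan (2.22 ± 0.59, edgeR adjusted p = 0.0443), with a median of 0.32.

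Of 20 matrix receptors tested, 1 was higher and 2 were lower. Itga1, the alpha chain of a collagen and laminin receptor, rose from 16.2 to 33.1 CPM in WT to 44.6 to 147 CPM in Cnp-Cre Jab1fl/fl (log2 fold change 2.25 ± 0.41, edgeR adjusted p = 0.00909). Itgb4, the beta chain of the laminin receptor of hemidesmosomes, was lower, at 56.5 to 185 CPM in WT and 4.00 to 30.9 CPM in the mutants (-3.10 ± 0.68, edgeR adjusted p = 0.0199). Itgb8, the beta chain of a receptor that activates latent TGF-beta, was also lower, at 55.9 to 108 CPM and 19.0 to 43.9 CPM (-1.30 ± 0.35, edgeR adjusted p = 0.0453). None of the genes of these 3 lists was called in double mutants against WT, beside 0.175% of all genes called higher and 0.0169% lower. Against Cnp-Cre Jab1fl/fl none was called either, as was the case for all genes. The smallest edgeR adjusted p over the lists were 0.152 and 0.847 in the same order.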

How the data were processed

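RNA-Seq counts of 12 samples were analysed, 4 per genotype, with genotypes and replicate numbers taken from the labels. Per the labels and the study's methods, the authors made libraries with the SMART-Seq v4 kit for paired-end sequencing and used Trimmomatic 0.32 for trimming, STAR 2.5.3a for alignment to GRCm38 and featureCounts for assignment to GENCODE basic genes (versions from the submitters' processing notes). Each deposited value is the raw count of a gene symbol in a sample, not normalized or filtered. Strand and multimapping settings are not given in the sources used here, and 17 of the 61 matrix genes have an exon overlapped by another gene. The study's own test was DESeq2.

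Positions and exon lengths came from GENCODE release M21 (GRCm38), which matched 54402 of 55376 symbols (98.2%), all 61 matrix genes included. Of these, 42 had a promoter window in the RefSeq table. CPM were computed with TMM factors, except in the gene filters, which used CPM without them. A gene that reached 1 CPM in 4 or more samples was tested with edgeR 4.0.16 (R 4.3.3), by its quasi-likelihood test on the 8 samples compared. Adjustment was by Benjamini-Hochberg over all genes tested, with a threshold of 0.05. The scripts were tested on simulated data. Counts carry no molecular identifiers, so a floor of 3 counts covers counting error only.

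Full statistics are given for each matrix gene past the threshold and, in each direction, for the 3 with the smallest p not past it. Levels are given for the other genes named, and of the listed pathway and marker genes, those called could be named, and not all are. The matrix genes, the lists and the tests were chosen with earlier results of these data known, and no matrix gene is on a marker list. Alternatives were DESeq2 1.42.0, limma-voom with sample quality weights (limma 3.58.1), upper-quartile factors, DESeq2 size factors, no filter, a minimum mean of 10 CPM, one fit of all 12 samples, that fit with the replicate number as a block, and each sample left out.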

Additional observations from a re-analysis of the deposited data

Results flagged for a closer look

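In 84 combinations of a genotype and one of 28 matrix genes, the highest or lowest of the 4 samples was compared with the others. Dixon's ratio was computed on the log2 of CPM plus 1, not on the CPM printed here. Chance exceeds the critical value of this ratio in about 1 of 20 groups. The critical value was exceeded by 5 values. Col6a1 was at 0.0883 CPM in Cnp-Cre Jab1fl/fl replicate 3, far below the 3.36 to 3.74 CPM of the other samples of that genotype. Col6a3 was at 11.7 CPM in Cnp-Cre Jab1fl/fl replicate 4, against 3.97 to 4.67 CPM. Lama2 was at 60.5 CPM in Cnp-Cre Jab1fl/fl replicate 3, against 23.9 to 26.4 CPM. Lama5 was at 4.94 CPM in Cnp-Cre Jab1fl/fl replicate 2, against 50.05 to 75.5 CPM. Lamc1 was at 82.2 CPM in WT replicate 3, against 14.9 to 19.3 CPM.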

How the results depend on the processing

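Fold changes of 32 matrix gene results were recomputed under the alternatives, giving 506 values, of which 432 kept their direction and side of the threshold, 48 lost significance, 26 gained it and 0 reversed. Matrix genes called higher in Cnp-Cre Jab1fl/fl against WT numbered 16 in DESeq2, 14 in limma-voom, 5 without a filter and 4 to 11 with a sample left out, and those called lower 1 in DESeq2, 1 in limma-voom and 0 to 1 with a sample left out (Lama2, without mutant replicate 3). In double mutants against WT, 4 were higher in DESeq2, 1 in limma-voom and 0 to 3 with a sample left out. Over all genes, 1354 were called in Cnp-Cre Jab1fl/fl against WT, 2689 in DESeq2 and 678 to 1863 with a sample left out. In double mutants against WT, 34 were called, 862 in DESeq2, 21 without a filter, 140 at a mean of 10 CPM, 164 with all 12 samples and 1 to 274 with a sample left out (274 without double mutant replicate 1). Between the mutants, 0 were called, 87 in DESeq2, 5 at a mean of 10 CPM, 1 in limma-voom and 0 to 2 with a sample left out. The cause of these differences was not tested.

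The replicate numbers were not treated as pairs in the main test. Over 8 same-numbered pairs the correlation of deviations was -0.19 to 0.08, and 0 of 12 samples correlated best with their own number. So few pairs of samples with a wide spread cannot exclude a batch that same-numbered samples share. With the replicate block, 79, 8 and 0 genes were called in the 3 comparisons, and 0 matrix genes in each.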
